A study of Saccharomyces cerevisiae with 6 samples.

Results

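The Yap factors of budding yeast are transcription factors with a basic region that contacts DNA and a leucine zipper that pairs 2 subunits, related to the AP-1 factors of animals. Each binds short Yap response elements in promoters, and different members serve different stresses. Yap1 is the main activator of genes that detoxify oxidants and drugs, Yap5 answers to iron, and Cin5 and Yap6 have been tied to salt and osmotic stress. The genes described here are the 7 members *YAP1*, *CAD1* (also called *YAP2*), *YAP3*, *CIN5* (also called *YAP4*), *YAP5*, *YAP6* and *YAP7*, chosen by name and found through the platform annotation. Each had 1 probe set, so that 7 of the 5449 *S. cerevisiae* genes tested, which had 5498 probe sets, are described. The remaining member, *ARR1* (also called Yap8), was listed with the other bZIP factors.

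Expression was measured in haploid *MAT*a yeast in which the chromosomal genes for histones H2A and H2B are deleted. A centromeric plasmid, marked with *HIS3*, supplies *HTA1* and Flag-tagged *HTB1*. In strain YKG007 the plasmid copy of *HTB1* carries the K37A change, which puts alanine in place of the H2B lysine that can be dimethylated, and in strain YKG001 it is wild type. For each strain, 3 cultures were grown in YPD, a rich glucose medium, to mid-exponential phase at an OD600 of 1.0, and the RNA of each was hybridized to its own Affymetrix Yeast Genome 2.0 array. The labels name histones as the source but total RNA as the molecule, and the study's methods describe RNA. Each strain is 1 construct in 1 background, and the genotype was not checked on the arrays. All values are log2 RMA signals, in which 1 unit is a factor of 2, and they do not allow the level of one gene to be set against that of another. Differences are H2B K37A minus wild type, with a standard error and an adjusted p from limma over all 5498 probe sets (two-sided, threshold 0.05).

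The arrays correlated at 0.994 to 0.998 within the K37A strain and at 0.997 to 0.998 within the wild-type strain (Pearson's r over probe sets, which are not independent replicates). The 6 markers of *MAT*a cells were above background, with a mean signal of 12.61 to 12.72 in H2B K37A cells and 12.60 to 12.66 in wild-type cells (log2 of the mean linear signal). Of 4 markers of *MAT*alpha cells, *MF(ALPHA)1* lay at 5.77 and 5.75 in the mutant and the wild type, under the background limit of 6.29, which is the 95th percentile of probe sets for genes outside *S. cerevisiae*, and 3 lay above it. One of these, *SAG1*, passed as higher in H2B K37A cells, with 10.32 and 10.10 in the mutant and the wild type (adjusted p = 0.0463 from limma). The others above the limit, *STE3* and *MF(ALPHA)2*, differed by -0.20 and 0.06 and did not pass (adjusted p = 0.0506 and 0.672 from limma). All 7 Yap genes lay above that limit, by 2.53 (*YAP7*) to 4.92 (*YAP1*).

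*CIN5* (YOR028C, chromosome XV), a bZIP factor whose excess gives salt tolerance and drug resistance, fell in H2B K37A cells to 0.472 of its wild-type signal. The RNA came from whole cultures, in which fewer expressing cells and less RNA per cell cannot be told apart. It gave 9.92, 9.50 and 9.06 on the K37A arrays, against 10.72, 10.63 and 10.38 on the wild-type arrays. Every mutant culture thus lay below every wild-type culture, and the mutant cultures were spread over 0.86 units, the wild-type ones over 0.35. The means were 9.49 ± 0.43 in H2B K37A cells and 10.57 ± 0.18 in wild-type cells (SD, n = 3 each). The decrease on the log2 scale was -1.08 (standard error 0.21, adjusted p = 0.0288 from limma), a ratio of 0.472 with a 95% confidence interval of 0.332 to 0.672. It was the 12th lowest of the 5498 differences, and *CIN5* was the sole member among the 0.364% of probe sets that differed by at least 2-fold. The study had listed this gene for such a fall on these arrays, so its place among them is not independent evidence. The call did not hold without K37A replicate 2 (adjusted p = 0.101 from limma) or without wild-type replicate 1 (0.0908), 2 (0.102) or 3 (0.0633), over a range of 0.0107 to 0.102 when each array was left out, while the difference stayed between -1.30 and -0.87.

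*YAP6* (YDR259C, chromosome IV), the closest relative of *CIN5* in the family and likewise tied to salt tolerance, moved the same way by a smaller amount. Its signals were 9.16, 8.99 and 8.89 in H2B K37A cells, against 9.42, 9.29 and 9.25 in wild-type cells. The groups did not overlap, but the highest mutant and the lowest wild-type array were only 0.09 apart. *YAP6* fell by 0.31 on the log2 scale (standard error 0.08, adjusted p = 0.0498 from limma), a ratio of 0.808 with a 95% confidence interval of 0.708 to 0.923. That adjusted p lies at the edge of the threshold, and among the 6 settings that left out 1 array the call held only without K37A replicate 1 (adjusted p = 0.0187), with adjusted p up to 0.146 in the other settings.

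*YAP3* (YHL009C, chromosome VIII) had the steadiest signals of the family. They were 10.36, 10.29 and 10.35 in H2B K37A cells, against 10.54, 10.56 and 10.55 in wild-type cells. The wild-type arrays lay within 0.02 of each other and the mutant arrays within 0.07, all below them. *YAP3* fell by 0.22 (standard error 0.04, adjusted p = 0.0217 from limma), a ratio of 0.861. The call was lost without K37A replicate 2 (adjusted p = 0.0873) or wild-type replicate 1 (0.0673), 2 (0.0937) or 3 (0.0609), although the difference stayed between -0.23 and -0.19. A gene next to it on the chromosome, *ETP1*, also fell, by 0.21 (standard error 0.05, adjusted p = 0.0360 from limma). The gene on the other side, *YHL009W-B*, differed by 0.02 and did not pass (adjusted p = 0.937 from limma). *STI1*, the cochaperone gene next to *CIN5*, differed by -0.18 and did not pass (standard error 0.05, adjusted p = 0.0564 from limma). *ETP1* was the only measured neighbour of any member that passed, beside the 14.5% of all tested probe sets that passed. The gene on the other side of *CIN5* was not measured. *ETP1*, *YHL009W-B* and *STI1* were chosen for mention once their values were known.

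**Figure D1:**
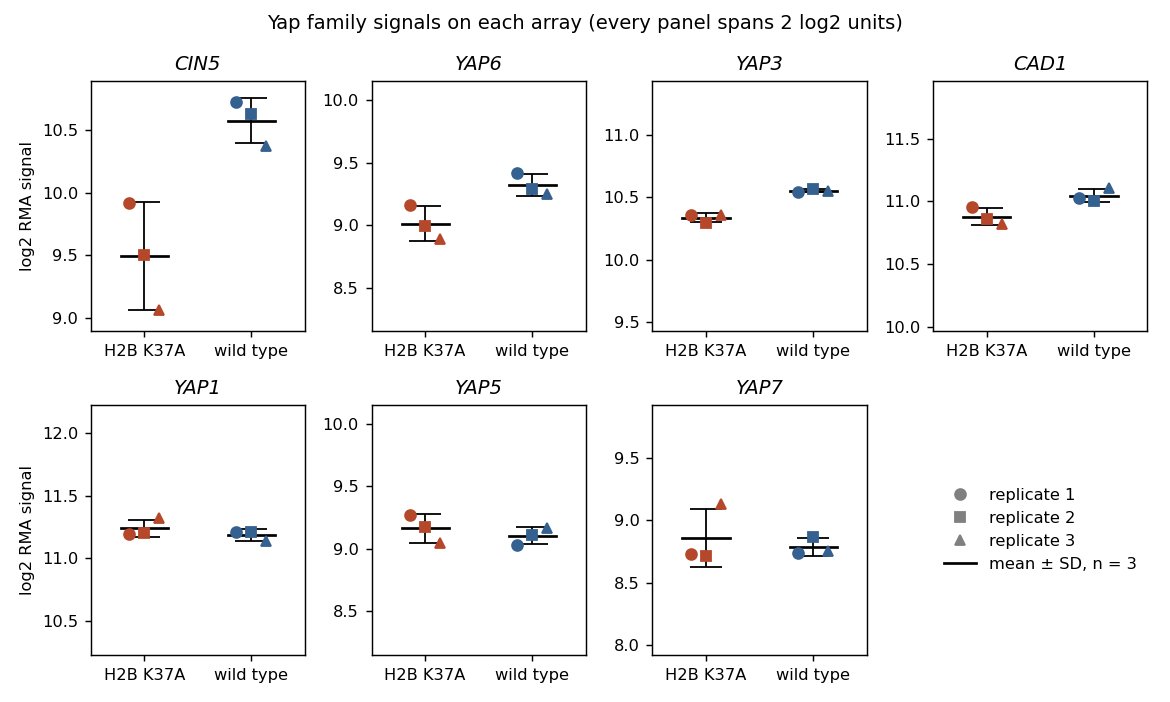
The log2 RMA signal of each Yap family gene (vertical axis) on the 3 H2B K37A arrays (left in each panel) and the 3 wild-type arrays (right), with the marker giving the replicate number and the bar the mean ± SD. For *CIN5*, *YAP6*, *YAP3* and *CAD1* every K37A array lies below every wild-type array, and for *YAP1*, *YAP5* and *YAP7* the groups overlap.

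*CAD1* (YDR423C, chromosome IV), named for the cadmium resistance that its excess gives, also had every mutant array below every wild-type array but missed the threshold. It gave 10.95, 10.86 and 10.82 in H2B K37A cells, against 11.03, 11.00 and 11.11 in wild-type cells, which is -0.17 on the log2 scale (standard error 0.05, adjusted p = 0.0651 from limma). It passed without K37A replicate 1 (-0.21 and an adjusted p of 0.0368 from limma) and in the fit with array weights, and in no other setting tried.

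The other 3 members showed no difference past the test, and their groups overlapped. *YAP1* (YML007W, chromosome XIII), the activator of the oxidative stress response, had 11.19, 11.20 and 11.32 in H2B K37A cells, against 11.21, 11.21 and 11.13 in wild-type cells. Its difference was 0.05 (adjusted p = 0.474 from limma), and the 95% confidence interval of its ratio ran from 0.958 to 1.12. *YAP5* (YIR018W, chromosome IX), an activator of genes for iron storage, had 9.27, 9.18 and 9.04 in H2B K37A cells, against 9.03, 9.11 and 9.17 in wild-type cells. Its difference was 0.06 (adjusted p = 0.579 from limma), with an interval of the ratio from 0.931 to 1.17. *YAP7* (YOL028C, chromosome XV), a repressor of the nitric oxide oxidoreductase gene *YHB1*, had 8.73, 8.72 and 9.13 in H2B K37A cells, against 8.74, 8.87 and 8.76 in wild-type cells. A single array, K37A replicate 3, stood 0.40 above the next mutant array, and the difference of 0.07 (adjusted p = 0.705 from limma) turned to -0.065 without it. These 3 intervals exclude a change of the size seen for *CIN5*, but not a small one.

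In all, 3 of the 7 members passed the test, all of them lower in H2B K37A cells, where 14.5% of all tested probe sets passed in either direction and 8.08% passed as lower. At an unadjusted p under 0.05 there were 4, with *CAD1* added, where 35% of all tested probe sets reached that level. In 4 of the 7 genes the 2 strains did not overlap, with the mutant lower. The strains did not overlap for 42.1% of all tested probe sets, and 21.5% had the mutant lower. The median difference of the family was -0.17, against 0.00 over all tested probe sets. With 7 genes chosen when earlier results were known, no test was made over the family as a whole. The number of members that passed was 0 without wild-type replicate 1, 2 or 3 or K37A replicate 2. It was 2 without K37A replicate 3 and 4 without K37A replicate 1. When all probe sets of the array were tested together it was 1, *CIN5*, at the edge of the threshold (adjusted p = 0.0492 from limma).

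**Figure D2:**
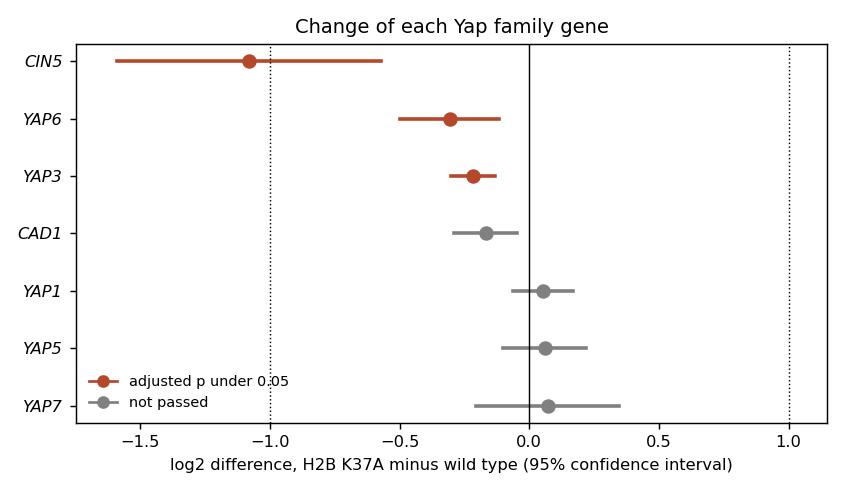
The log2 difference of each Yap family gene, H2B K37A minus wild type (horizontal axis), with its 95% confidence interval from limma, 3 arrays per strain, and dotted lines at a 2-fold change. *CIN5* stands at -1.08 and the other 6 genes between -0.31 and 0.07.

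Most of the family comes as pairs of related genes, and the ratio between the genes of a pair was compared within each array. The log2 signal of *CIN5* minus that of *YAP6* was 0.76, 0.50 and 0.17 on the K37A arrays, against 1.30, 1.33 and 1.12 on the wild-type arrays. The sizes themselves depend on the probes, but the shift between the strains, -0.78, was larger than the SD of 0.29 between mutant and 0.11 between wild-type cultures. Every K37A array thus lay below every wild-type array in this ratio, without passing the test (exact permutation test, two-sided p = 0.1, the smallest that 3 arrays against 3 allow, adjusted p = 0.15 over 3 pairs). *CAD1* minus *YAP1* shifted by -0.22, with -0.24, -0.34 and -0.50 on the K37A arrays and -0.18, -0.21 and -0.03 on the wild-type arrays (exact permutation test, two-sided p = 0.1, adjusted p = 0.15). *YAP5* minus *YAP7* shifted by -0.01, with overlapping groups (exact permutation test, two-sided p = 1).

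The spread of *CIN5* among the mutant cultures was itself large, with an SD above that of 99.7% of all tested probe sets, and above that of 95.5% in the wild type. The 6 arrays stood in the same order for *CIN5* and for *YAP6* as on the first principal component of all tested probe sets, which held 71.5% of the variance. On that axis the K37A arrays lay at -2.38, -7.51 and -12.8 and the wild-type arrays at 9.88, 6.97 and 5.89. *CIN5* was highest on the outermost wild-type array, replicate 1, and lowest on the outermost K37A array, replicate 3. Without those 2 arrays, which were picked once the values were known, the difference of *CIN5* was -0.79 (adjusted p = 0.0699 from limma), and no member passed. The part that this shared variation between cultures has in the result was not tested.

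The genes whose profile over the 6 arrays came nearest to that of *CIN5* were *UGX2*, *GLC3*, *RTC2*, *MTH1* and *DDR2*. Likeness was measured as the root mean square difference between log2 signals centred on each gene's mean. It was 0.05 for *UGX2*, a stress-induced gene of unknown function, 0.09 for *GLC3*, the glycogen branching enzyme, 0.09 for *RTC2*, a vacuolar amino acid transporter, 0.09 for *MTH1*, a negative regulator of glucose sensing, and 0.11 for *DDR2*, a gene raised by many stresses. The median over all tested probe sets was 0.61, and within the family *YAP6* was nearest at 0.43, followed by *YAP3* at 0.51 and *CAD1* at 0.52. All 5 nearest genes had lower signals in H2B K37A cells, with differences of -0.97 (*DDR2*) to -1.21 (*MTH1*), and 4 of them are on the study's list of 2-fold changes. Falls of about this size follow from choosing genes by their closeness to *CIN5* and are not a separate result. *UGX2* illustrates the match, with 8.33, 7.84 and 7.54 in H2B K37A cells, against 9.20, 9.02 and 8.82 in wild-type cells. The arrays are the same for all these genes, and a likeness over 6 arrays of 2 strains is a description.

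**Figure D3:**
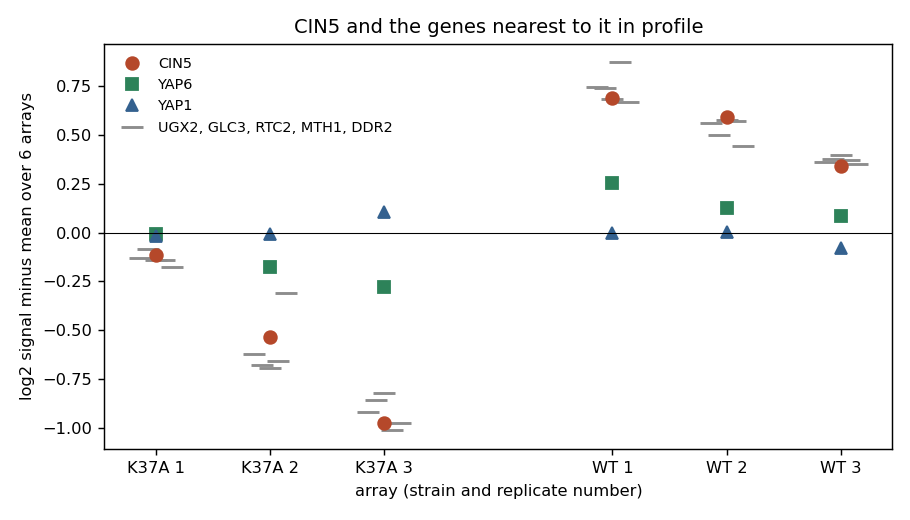
Log2 signal minus the mean over the 6 arrays (vertical axis) for *CIN5*, *YAP6* and *YAP1* (filled markers) and for the 5 genes nearest to *CIN5* (grey bars), by array. *CIN5* lies at -0.11, -0.54 and -0.97 on the K37A arrays and at 0.69, 0.59 and 0.34 on the wild-type arrays, with the 5 genes close beside it, *YAP6* follows with smaller steps, and *YAP1* stays between -0.08 and 0.11.

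Several genes known to act with or on Cin5 differed too. Of 10 partners and upstream factors, 4 were lower, 1 was higher and 5 did not pass, with a median of -0.04, where 14.5% of all tested probe sets passed and 8.08% passed as lower. *LOT6*, the quinone reductase that binds Cin5 and holds it in the cytoplasm under reducing conditions, had 10.05, 9.87 and 9.86 in H2B K37A cells, against 10.34, 10.40 and 10.30 in wild-type cells, and fell by 0.42 (standard error 0.06, adjusted p = 0.0177 from limma). *MSN4*, a general stress activator, had 10.55, 10.33 and 10.42 in H2B K37A cells, against 11.11, 10.95 and 10.82 in wild-type cells, and fell by 0.52 (standard error 0.09, adjusted p = 0.0218 from limma). Both genes had all mutant arrays below all wild-type arrays. Of the 10 genes, 4 had the mutant wholly below and 2, *MSN2* and *YGK3*, wholly above. Over all tested probe sets 21.5% had the mutant wholly below, and 42.1% did not overlap in either direction. *MSN2*, the paralog of *MSN4*, differed by 0.12 and did not pass (adjusted p = 0.175 from limma).

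Kinases related to glycogen synthase kinase, a family that phosphorylates Cin5, did not move together. *MRK1* fell by 1.08 (adjusted p = 0.0295 from limma) and *RIM11* by 0.29 (adjusted p = 0.0395 from limma), whereas *YGK3* rose by 0.40 (adjusted p = 0.0241 from limma) and *MCK1* differed by -0.07 (adjusted p = 0.554 from limma). *MRK1*, like *CIN5*, is on the study's own list. The corepressor genes *TUP1* and *CYC8*, whose products work with Cin5 and Yap6, differed by 0.02 and -0.01, and the osmotic stress kinase gene *HOG1* by 0.06, none of which passed. Over all 8 lists related to the family, 14 of 67 genes passed, beside 14.5% of all tested probe sets. None passed without K37A replicate 2 or without wild-type replicate 2, where limma still had 1435 and 1502 of all probe sets at an unadjusted p under 0.05. The number was 15 and 9 when K37A replicate 1 or 3 was left out, and 1 and 4 when wild-type replicate 1 or 3 was.

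Of 9 measured genes of salt and osmotic stress, 2 were lower, 1 was higher and 6 did not pass, with a median of -0.15, beside the 14.5% of all tested probe sets that passed. The number that passed was 4 without K37A replicate 1, 1 without K37A replicate 3 and 0 without K37A replicate 2 or any of the wild-type arrays. *GCY1*, a glycerol dehydrogenase whose induction in osmotic stress depends in part on Cin5, had 11.66, 11.61 and 11.30 in H2B K37A cells, against 12.26, 12.15 and 11.99 in wild-type cells. It fell by 0.61 (standard error 0.11, adjusted p = 0.0255 from limma), with no overlap between the strains, as for 42.1% of all tested probe sets. *STL1*, a glycerol importer, fell by 0.15 (adjusted p = 0.0466 from limma). *GPP2*, a glycerol phosphatase that has also been tied to Cin5, moved the other way, with 13.07, 13.19 and 13.14 in H2B K37A cells, against 12.82, 12.92 and 12.95 in wild-type cells. It rose by 0.24 (standard error 0.05, adjusted p = 0.0353 from limma). *DCS2*, a further gene of that kind, differed by -0.30 and did not pass (adjusted p = 0.184 from limma), nor did *GRE2*, a reductase raised by osmotic stress, which differed by 0.22 (adjusted p = 0.0681 from limma).

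Of 15 genes under Yap1, 2 were higher and 13 did not pass, with a median of -0.01, beside the 14.5% of all tested probe sets that passed. At an unadjusted p under 0.05 there were 7, where 35% of all tested probe sets reached that level. For 7 the strains did not overlap, 4 with the mutant higher and 3 with it lower, beside 42.1% of all tested probe sets without overlap. Both that rose encode drug pumps of the plasma membrane. *ATR1*, which gives resistance to aminotriazole, had 10.74, 10.60 and 10.88 in H2B K37A cells, against 10.15, 10.21 and 10.34 in wild-type cells, and rose by 0.51 (standard error 0.08, adjusted p = 0.0217 from limma). *FLR1*, a fluconazole exporter, rose by 0.21 (standard error 0.04, adjusted p = 0.0255 from limma). The sulfiredoxin *SRX1* and the glutathione transferase *GTT2* differed by -0.33 and 0.28 without passing (adjusted p = 0.129 and 0.0933 from limma), the peroxidase *GPX2* by -0.22 (adjusted p = 0.0529 from limma) and the thioredoxin *TRX2*, a standard readout of Yap1 activity, by 0.04 (adjusted p = 0.503 from limma). Beside the same 14.5% of all tested probe sets, 1 passed of the 6 genes that sense oxidants for Yap1 or carry it through the nuclear pore. This was *HYR1*, the peroxidase that oxidizes Yap1, which fell by 0.14 (standard error 0.03, adjusted p = 0.0405 from limma). That call was lost in each of the 6 settings that left out 1 array, with all probe sets tested, with arrays centred on their median and with the replicate block. The Yap1-binding proteins *YBP1* and *YBP2* differed by -0.14 and -0.13 (adjusted p = 0.131 and 0.0570 from limma), *TRX1* by 0.07 (adjusted p = 0.367 from limma), and *CRM1* and *PSE1*, which move proteins out of and into the nucleus, by 0.01 and 0.06.

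**Figure D4:**
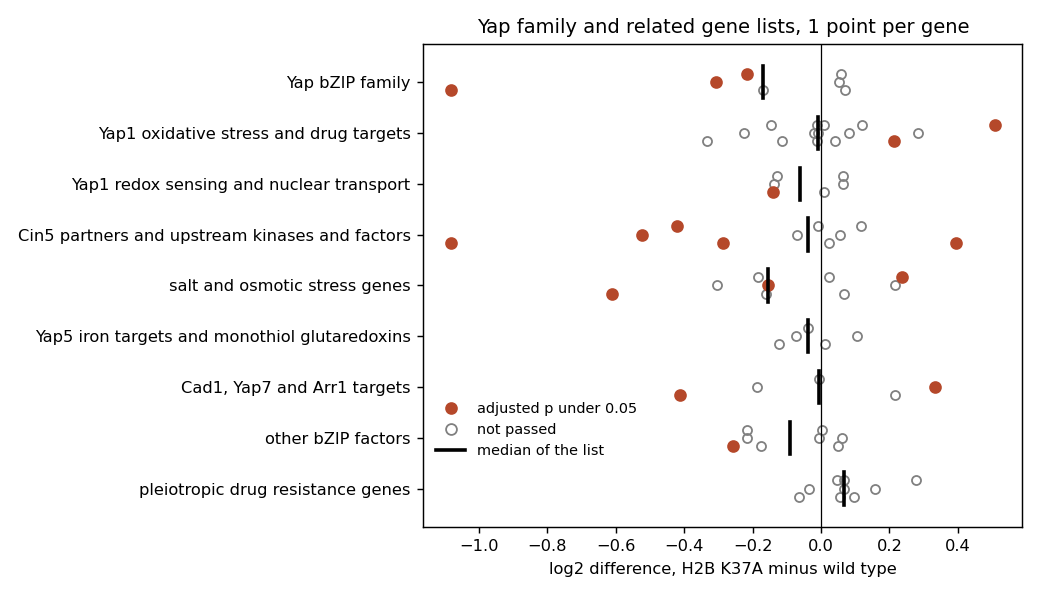
The log2 difference, H2B K37A minus wild type (horizontal axis), of each gene of the Yap family and 8 related lists, filled where the adjusted p from limma was under 0.05, with a black bar at the median of each list. The medians lie between -0.17 and 0.07, and genes that passed stand on both sides of 0 for the Cin5 partners, the salt and osmotic stress genes and the targets of Cad1, Yap7 and Arr1.

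Of 10 genes on the lists for the other members and for Arr1, 2 passed, beside the 14.5% of all tested probe sets that passed. None of 5 genes of the Yap5 iron list passed (1 at an unadjusted p under 0.05, from limma, beside 35% of all tested probe sets). The vacuolar iron importer *CCC1* differed by -0.12 (adjusted p = 0.116 from limma), the iron-sulfur enzyme *TYW1* by 0.10, the glutaredoxins *GRX4* and *GRX3* by -0.07 and 0.01, and the metallothionein *CUP1-1*, present in several copies, by -0.04. Of 5 targets of Cad1, Yap7 and Arr1, 2 passed. The number was 2 without K37A replicate 1 or 3, 1 without wild-type replicate 1 or 3, and 0 without replicate 2 of either strain. *FRM2*, a nitroreductase-like gene under Cad1, rose by 0.33 (standard error 0.06, adjusted p = 0.0252 from limma), with 8.78, 8.93 and 8.72 in H2B K37A cells, against 8.45, 8.51 and 8.47 in wild-type cells. Its paralog *HBN1* differed by 0.22 without passing (adjusted p = 0.193 from limma). *ARR3*, the arsenite exporter under Arr1, fell by 0.41 (standard error 0.05, adjusted p = 0.0146 from limma), with 7.55, 7.55 and 7.58 in H2B K37A cells, against 8.06, 7.91 and 7.94 in wild-type cells. For *FRM2* and *ARR3*, 2 of the 5 genes, the strains did not overlap, beside 42.1% of all tested probe sets without overlap. The arsenate reductase *ARR2* differed by -0.19 (adjusted p = 0.232 from limma) and *YHB1* by -0.01 (adjusted p = 0.933 from limma).

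Of the 8 bZIP factors outside the 7 members, 1 passed as lower and 7 did not pass, with a median of -0.09, near the 8.08% of all tested probe sets that passed as lower. The number that passed was 1 without K37A replicate 1 and 0 without any other single array. *SKO1*, a repressor and activator under Hog1, had 11.17, 11.06 and 11.05 in H2B K37A cells, against 11.40, 11.37 and 11.28 in wild-type cells, and fell by 0.26 (standard error 0.05, adjusted p = 0.0295 from limma). *ACA1* and *CST6*, which are related to each other, differed by -0.22 and -0.18, and *MET28*, a cofactor of sulfur metabolism, by -0.22, none of which passed. *ARR1* differed by -0.01 (adjusted p = 0.916 from limma). Of 9 genes of pleiotropic drug resistance, controlled by Pdr1 and Pdr3, none passed, with a median of 0.07, beside the 14.5% of all tested probe sets that passed. In the fits with quantile normalization, arrays centred on their median, a variance trend with intensity or array weights, 1 gene of this list passed. The values that follow are from the main fit. At an unadjusted p under 0.05 from limma there was 1, beside 35% of all tested probe sets. The largest differences there were 0.28 for *RSB1*, a sphingoid base transporter, 0.16 for the pump *YOR1* (adjusted p = 0.340 and 0.0569 from limma), and 0.10 and 0.07 for *PDR3* and the pump *SNQ2*.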

How the data were processed

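RNA from 3 cultures of each strain was hybridized to 6 Affymetrix arrays. The authors computed log2 signals with RMA in Affymetrix Expression Console, per the labels, and deposited 1 table of 10928 probe sets. Tool versions: not given in the sources used here. RMA gives all arrays the same distribution, so a shift shared by most transcripts is not seen. The platform annotation named the probe sets, and 5498 matching a gene of assembly R64 were tested. The test was limma 3.58.1 (R 4.3.3) with strain as its single term, eBayes and Benjamini-Hochberg adjustment over all 5498. The fit was tested on simulated data with independent noise in each probe set. These leave out the variation that probe sets share on an array, so they do not give the error rate here. Within-array differences between paralogs were compared by exact permutation. The members and the 8 lists (67 measured genes, the brightest probe set where a gene has several; *ENA1* and *ENA2* of the salt list were not matched) were chosen with earlier results of these data known. Besides all members, the text names the 4 genes of each list with the largest difference, all genes of lists of 5 or fewer, *ARR1* and the 5 genes nearest *CIN5*. Genes outside this rule were named after their values were seen: *MSN2*, *MCK1*, *RIM11*, *TUP1*, *CYC8*, *HOG1*, *STL1*, *FLR1*, *TRX2*, *CRM1*, *PSE1*, *SAG1*, *MF(ALPHA)1*, *STI1*, *ETP1*. Alternatives changed the probe sets tested, normalization, variance model, block and arrays. The cultures were grown side by side, and p-values measure the spread between them. The number of arrays limits the precision.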

Additional observations from a re-analysis of the deposited data

How the results depend on the processing

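Over the alternatives, *CIN5*, *YAP6*, *YAP3* and *CAD1* were lower in H2B K37A cells in each, and the calls varied. With all probe sets of the array tested, 1 member passed, *CIN5* (adjusted p = 0.0492 from limma). In that setting *YAP3* (-0.22, adjusted p = 0.0570 from limma) and *YAP6* (-0.31, adjusted p = 0.0973 from limma) did not, and 8 list genes passed in place of 14. With array weights, whose estimate stopped short of its tolerance, *CAD1* passed (-0.17, adjusted p = 0.0188), *YAP7* turned to -0.063 and 28 list genes passed. Without the outermost array of each strain (wild-type replicate 1, K37A replicate 3), picked once the values were known, no member passed (*CIN5* -0.79, *YAP3* -0.23, *YAP6* -0.20), 3 list genes did, *YAP7* was -0.090 and *YAP5* minus *YAP7* was 0.17. With each array left out, the ranges were -1.30 to -0.87 for *CIN5*, -0.38 to -0.24 for *YAP6*, -0.23 to -0.19 for *YAP3*, -0.21 to -0.14 for *CAD1*, -0.065 to 0.14 for *YAP7*, -0.13 to 0.18 for *YAP5* minus *YAP7*, 0 to 4 for members and 0 to 15 for list genes that passed. Over all probe sets 798 passed, against 281, 1956 and 129 in the first 3 settings and 2 to 1140 with an array left out (1435 to 2049 at an unadjusted p under 0.05, from limma). The cause was not tested. Arrays of the same replicate number share only that number. Their deviations from the strain means correlated at 0.40, -0.29 and 0.23, and not every array correlated best with its own number. With the replicate block, 947 probe sets and the same 3 members passed (*CIN5* -1.08, adjusted p = 0.0133).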
